A study of Homo sapiens with 12 samples.

Results

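The genes described here are 10 components of the Notch pathway, namely the receptors NOTCH1, NOTCH2 and NOTCH3, the ligands JAG1, JAG2 and DLL1, the Fringe enzymes LFNG and MFNG, and the target genes HES1 and HEY1. They were chosen by name, with earlier results of these data known, as 10 of 19775 genes on the arrays. Each gene was represented by the probe set that is annotated to that gene alone and has the highest mean over all arrays.

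The RNA came from Hs578T and BT-20, established human breast cancer cell lines that are usually grouped with the triple-negative lines, Hs578T with a mesenchymal and BT-20 with an epithelial appearance. All cells had been exposed for 24 h to 200 nM of an oligonucleotide together with the liposomal transfection reagent DOTAP, and the question of the study was what methylation of the CpG sites in such DNA does to gene expression. In each line 4 treatments were measured: ODN2006, a single-stranded oligodeoxynucleotide (ODN) of the CpG kind known as a ligand of Toll-like receptor 9; its control with GpC in place of CpG; and a double-stranded piece of the first exon of CDH13, the T-cadherin gene, whose CpG cytosines were methylated (M) or left unmethylated (U). M and U had 2 arrays per line, which the labels number as set 1 and set 2 and describe as biological replicates. ODN2006 and its control had 1 array each per line and no set number, and neither untreated cells nor cells given DOTAP alone were among the arrays used here.

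Notch receptors are transmembrane proteins that are activated by Jagged and Delta ligands on a neighbouring cell. Ligand binding lets ADAM10 and then gamma-secretase cut the receptor, and the released intracellular domain enters the nucleus, joins the DNA-binding protein RBPJ and Mastermind proteins, and switches on repressors of the HES and HEY families. Fringe enzymes add sugars to the receptor in the Golgi and thereby change its response to Jagged and Delta ligands. In the mammary gland the pathway is known for its part in luminal cell fate.

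The oligonucleotides are shown because all comparisons of treatment rest on them. Capitals mark the CG pairs of ODN2006 and of the CDH13 strand, and the GC pairs of the control that take their place.
ODN2006: tCGtCGttttgtCGttttgtCGtt
ODN2006 control: tGCtGCttttgtGCttttgtGCtt
CDH13 oligonucleotide, first strand: tCGgatCGccCGgcaCGggcagggtgaggg
ODN2006 and its control are 24 bases long, and each has 4 of the marked pairs. The CDH13 strand has 30 bases and 4 CG pairs, which begin 2, 7, 11 and 16 bases from the 5′ end (counted from 1) and are methylated in M.

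The values are log2 GCRMA expression values, on which a difference of 1 is a factor of 2. Array medians lay between 3.01 and 3.08, and the correlation between arrays was 0.985 to 0.998 within a line and 0.887 to 0.906 between the lines. A gene was tested if it reached 5 in at least 2 arrays of the comparison, and was called at an adjusted p under 0.05 (limma, Benjamini-Hochberg over all genes tested). The lines carried the markers of their types. All 15 epithelial markers tested were lower in Hs578T (KRT19 at 2.23 to 2.29 in Hs578T and 13.15 to 14.14 in BT-20), and all 18 mesenchymal markers were higher (COL3A1 at 14.86 to 15.03 in Hs578T and 2.62 to 2.68 in BT-20). Of 9 endothelial and leukocyte markers 7 stayed under 5 on every array, the exceptions being PECAM1, at 4.08 to 6.69 in Hs578T, and CDH5, at 7.29 to 9.48 in BT-20. On a linear scale the summed mesenchymal signal of BT-20 was 5654 and 7848 on the M and U arrays of set 1, 2506 and 2533 on those of set 2 and 1588 and 1787 on the ODN arrays, against 240710 or more in Hs578T. FN1 was the highest of the 18 in BT-20, at 12.37 and 12.87 in set 1, 11.02 and 11.04 in set 2 and 10.18 and 10.43 on the ODN arrays. In BT-20 14 of the 18 stayed under 5 on every array, so the sum mostly follows FN1. The part of these differences in the results below was not tested.

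The first comparison was of Hs578T with BT-20 over the 8 M and U arrays, which hold both sets in both lines. All 3 receptors were above 5 on every array of both lines. JAG1 and HEY1 were higher in Hs578T by 4.34 and 3.96, JAG2 was lower by a log2 difference of -2.05, and NOTCH2, NOTCH3 and HES1 were lower by less than 1. Of the 10 genes 7 could be tested and 6 were called, 2 higher and 4 lower in Hs578T. The lines differ in most genes: 74.6% of the 10410 genes tested were called, 34.4% higher and 40.2% lower in Hs578T, so 6 of 7 is close to the background of the comparison. The median difference of the 7 genes was -0.69, against -0.09 over all genes tested. JAG2 reached 5 only in BT-20 and HEY1 only in Hs578T, so each passed the filter only through the line where it was higher. Fitted without the filter, both were called too (limma, adjusted p = 0.00693 and 0.000172), among 19775 genes of which 39.6% were called. The share of all genes whose arrays do not overlap between the lines was not counted. In RNA from whole cultures, less RNA per cell and fewer cells that express a gene cannot be told apart.

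**Figure D1:**
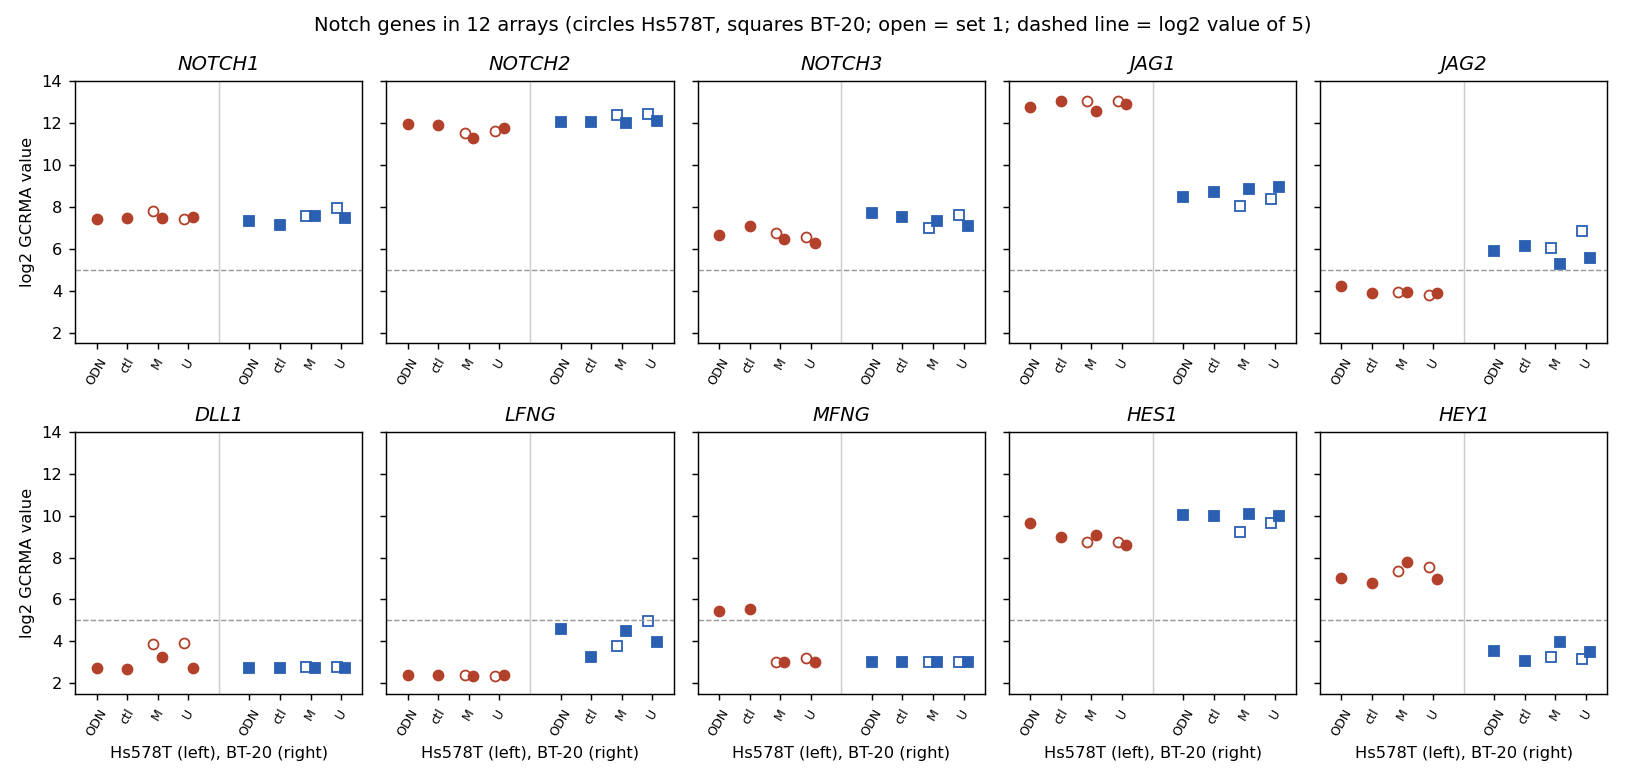
Log2 GCRMA value (vertical axis) of the 10 Notch genes on each of the 12 arrays, 1 point per array. In each panel Hs578T is left (circles) and BT-20 right (squares), each with ODN2006 (ODN), its control (ctl), M and U, open symbols are set 1, filled symbols are set 2 or the ODN arrays, and the dashed line is a log2 value of 5. JAG1 and HEY1 are high in Hs578T, JAG2 is higher in BT-20, and so is LFNG, though under 5 on every array. MFNG stands above 5 only on both ODN arrays of Hs578T.

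NOTCH1 (gene ID 4851, chromosome 9, 136494433 to 136546048, GRCh38.p14; probe set 218902_at) encodes a receptor. In Hs578T it measured 7.43 with ODN2006, 7.49 with the ODN control, 7.79 and 7.49 with M (set 1 and set 2) and 7.41 and 7.50 with U. In BT-20 it measured 7.32 with ODN2006, 7.16 with the control, 7.58 and 7.56 with M and 7.94 and 7.49 with U. The lines overlapped, and the difference of -0.09 (SE 0.13, adjusted p = 0.545) did not pass the test. Its sign turned without the BT-20 U array of set 1 (0.02) and on the ODN arrays alone (0.22, adjusted p = 0.146). A further NOTCH1 probe set, 223508_at, read 2.32 to 3.42 and was not tested.

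NOTCH2 (gene ID 4853, chromosome 1, 119911553 to 120069662; 202443_x_at), a receptor with closely related NOTCH2NL copies in the human genome, measured 11.95 with ODN2006, 11.92 with the control, 11.54 and 11.29 with M and 11.60 and 11.75 with U in Hs578T. In BT-20 the values were 12.06 with ODN2006, 12.03 with the control, 12.39 and 12.01 with M and 12.45 and 12.09 with U. Every array of Hs578T was below every array of BT-20. The difference on the M and U arrays was -0.69 (SE 0.14, adjusted p = 0.00362), while on the ODN arrays alone it was -0.11 (adjusted p = 0.372). All 4 probe sets annotated to NOTCH2 alone were called lower in Hs578T, by -0.41 to -1.15. A further probe set is annotated to several genes, and because of the related copies how much of the signal is NOTCH2 itself stays uncertain.

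NOTCH3 (gene ID 4854, chromosome 19, 15159038 to 15200995; 203238_s_at), a receptor best known from vascular smooth muscle, measured 6.68 with ODN2006, 7.11 with the control, 6.76 and 6.46 with M and 6.58 and 6.29 with U in Hs578T. In BT-20 it measured 7.71 with ODN2006, 7.53 with the control, 6.98 and 7.31 with M and 7.60 and 7.08 with U. The M and U arrays of the lines did not overlap, but the Hs578T control ODN array lay above 2 of the BT-20 arrays. The difference was -0.72 (SE 0.16, adjusted p = 0.0063), with the same sign on the ODN arrays alone (-0.73, adjusted p = 0.0199). A further probe set, 203237_s_at, was at 2.33 to 2.46 on all arrays.

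JAG1 (gene ID 182, chromosome 20, 10637684 to 10673999; 209099_x_at), a Jagged ligand, had the largest difference of the 7 genes tested, also with values under 5 raised to 5. In Hs578T it measured 12.78 with ODN2006, 13.03 with the control, 13.06 and 12.59 with M and 13.07 and 12.89 with U. In BT-20 it measured 8.46 with ODN2006, 8.69 with the control, 8.05 and 8.87 with M and 8.37 and 8.96 with U. The mean of the M and U arrays was 12.9 ± 0.23 in Hs578T and 8.56 ± 0.43 in BT-20 (SD over 4 arrays each, from 2 sets). The difference was 4.34 (SE 0.23, limma, adjusted p = 5.37e-06). M and U arrays of the same set are not independent, so 4 overstates the number of replicates. The gene has 6 probe sets, of which 5 were tested and all 5 were called higher in Hs578T, by 1.74 to 5.62; 229924_s_at was at 2.01 to 2.04 on all arrays.

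JAG2 (gene ID 3714, chromosome 14, 105140995 to 105168776; 209784_s_at), the other Jagged ligand, lay the other way. It measured 4.25 with ODN2006, 3.91 with the control, 3.95 and 3.93 with M and 3.80 and 3.91 with U in Hs578T, all under 5. In BT-20 it measured 5.88 with ODN2006, 6.12 with the control, 6.06 and 5.26 with M and 6.87 and 5.58 with U, so that the lines did not overlap on any array. The difference was -2.05 (SE 0.31, adjusted p = 0.000799), or -0.94 (adjusted p = 0.0253) with values under 5 raised to 5. The second probe set, 32137_at, differed by -1.89 (adjusted p = 0.00208).

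DLL1 (gene ID 28514, chromosome 6, 170282206 to 170291078; 224215_s_at), a Delta ligand, stayed under 5 on all 12 arrays and was not tested. The highest values were 3.90 with M and 3.92 with U in set 1 of Hs578T, and 3.27 with M in set 2. All other arrays of both lines read 2.69 to 2.76.

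LFNG, the Lunatic Fringe gene (gene ID 3955, chromosome 7, 2512529 to 2529177; 228762_at), was under 5 everywhere too. In Hs578T it read 2.36 to 2.42 on the 6 arrays. In BT-20 it read 4.60 with ODN2006, 3.27 with the control, 3.79 and 4.50 with M and 4.95 and 3.96 with U, above every array of Hs578T. Fitted without the filter on low values, the difference on the M and U arrays was -1.93 (SE 0.27, limma, adjusted p = 0.00385). In that fit 39.6% of 19775 genes were called. The second LFNG probe set, 215270_at, read 2.23 to 2.28 on all arrays of both lines. MFNG, the Manic Fringe gene, was at 3.02 to 3.23 on the M and U arrays of both lines and is described with the ODN arrays.

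HES1 (gene ID 3280, chromosome 3, 194136148 to 194138732; 203394_s_at), a repressor of the basic helix-loop-helix class and the best known direct target of Notch, measured 9.65 with ODN2006, 8.96 with the control, 8.72 and 9.06 with M and 8.72 and 8.59 with U in Hs578T. In BT-20 it measured 10.05 with ODN2006, 9.96 with the control, 9.24 and 10.08 with M and 9.65 and 10.00 with U. The M and U arrays did not overlap, but the Hs578T array with ODN2006 reached the range of BT-20. The difference was -0.97 (SE 0.21, adjusted p = 0.0045). The probe sets of HES1 disagreed: 203395_s_at, at 8.86 to 9.39 in Hs578T and 9.13 to 9.61 in BT-20, differed by only -0.21 and did not pass the test (adjusted p = 0.255).

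HEY1 (gene ID 23462, chromosome 8, 79764010 to 79767767; 44783_s_at), a repressor related to HES1, measured 7.03 with ODN2006, 6.79 with the control, 7.37 and 7.81 with M and 7.56 and 6.97 with U in Hs578T. In BT-20 it measured 3.53 with ODN2006, 3.05 with the control, 3.28 and 3.96 with M and 3.14 and 3.48 with U. Every array of Hs578T was above 5 and every array of BT-20 below it. The difference was 3.96 (SE 0.22, adjusted p = 6.15e-06), or 2.43 with values under 5 raised to 5, and 3.16 (adjusted p = 4.11e-06) by the second probe set, 218839_at. HEY1 and HES1, both targets of the same pathway, thus stood in opposite order between the lines by the probe sets used.

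Within set 1 alone the difference between the lines was 4.85 for JAG1, 4.25 for HEY1 and -2.59 for JAG2, and within set 2 alone it was 3.83, 3.67 and -1.50 for the same genes in the same order. All of these were called. NOTCH3 was not called within set 1 (-0.62, adjusted p = 0.0612), and NOTCH2 was not called within set 2 (-0.54, adjusted p = 0.056). In BT-20 the sets themselves stood apart for JAG1, HES1 and HEY1, which were lower in set 1 on both M and U arrays, and for JAG2, NOTCH2 and NOTCH1, which were higher there. In Hs578T JAG1, NOTCH3 and DLL1 were higher in set 1, JAG1 at 13.06 and 13.07 against 12.59 and 12.89, the other way than in BT-20. The share of all genes that separate in this way was not counted. HEY1 in BT-20 and DLL1 in Hs578T lay under 5. In BT-20 the second probe set of HEY1 read 2.82 and 2.23 in set 1 and 2.53 and 2.56 in set 2, without separating the sets. The second probe sets of JAG2 in BT-20 and DLL1 in Hs578T did not separate them either. Nor did 209098_s_at of JAG1 in BT-20, at 5.03 and 5.83 in set 1 and 5.21 and 5.21 in set 2.

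The rest of the pathway was read from 6 lists with 66 genes, of which 62 were measured and 48 tested between the lines. Of the 48, 11 were called higher and 22 lower in Hs578T, and 15 were not called. Their median difference was -0.14, against -0.09 over all genes tested. The counts of these lists are to be read against the 34.4% of all genes tested that were called higher and the 40.2% called lower, and no list was tested against the other genes. Of the genes named below, DNER, POGLUT1, HEY2, NRARP and DTX4 reached 5 in only 1 line and passed the filter only through it.

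Among other receptors and ligands 2 of 8 genes were tested. DNER, a transmembrane protein described as an atypical Notch ligand in the nervous system, was higher in Hs578T by 6.27 (adjusted p = 1.26e-07), or 4.35 with values under 5 raised to 5, at 9.11 to 9.59 on the M and U arrays of Hs578T and 2.97 to 3.21 on those of BT-20. DLK2 differed by 0.63 (adjusted p = 0.0505). Of the 4 genes for glycosylation and maturation of the receptor, 2 were higher and 1 lower. POGLUT1, which adds O-linked glucose to Notch, was higher by 3.50 (adjusted p = 1.57e-06; 3.22 with values under 5 raised to 5), POFUT1, which adds the O-fucose that Fringes extend, by 0.57 (adjusted p = 0.00306), and FURIN, the convertase that cuts the precursor, was lower by -0.85 (adjusted p = 0.00049). The remaining Fringe, RFNG, differed by 0.53 and was not called (adjusted p = 0.0754).

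Of 7 genes tested for cleavage of the receptor, 4 were called lower in Hs578T, 0 higher and 3 were not called, with a median of -0.65; over all genes tested 74.6% were called, 40.2% lower. ADAM10, the protease of the first cut after ligand binding, was at 11.35 to 11.69 in Hs578T and 12.57 to 12.73 in BT-20, a difference of -1.09 (adjusted p = 0.000161). The gamma-secretase subunits PSEN2, APH1A and NCSTN differed by -1.17, -0.83 and -0.65 (adjusted p = 0.000172, 0.000153 and 0.00365).

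Of 16 genes tested for the nuclear complex and its corepressors 4 were higher and 9 lower. MAML2, a Mastermind coactivator, was higher by 1.12 (adjusted p = 0.000186). The corepressors TLE1 and CTBP1 were lower by -2.36 and -1.87 (adjusted p = 7.68e-05 and 4.04e-06), as was the histone deacetylase HDAC2 (-1.11, adjusted p = 0.000208). RBPJ, named here after its values were seen, read 9.75 to 10.07 in Hs578T and 9.53 to 9.83 in BT-20 and was not called (0.27, adjusted p = 0.0802).

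Of 13 genes tested for trafficking and ubiquitin ligases 2 were higher and 6 lower. DTX4, a Deltex ubiquitin ligase, read 3.07 to 3.39 in Hs578T and 7.48 to 8.93 in BT-20, a difference of -5.19 (adjusted p = 1.06e-06), or -3.35 with values under 5 raised to 5. ITCH and FBXW7, ubiquitin ligases that act on Notch, and AAK1, a kinase of endocytosis, were lower by -1.39, -1.30 and -1.32 (adjusted p = 4.77e-05, 0.00013 and 7.41e-05).

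The list of other genes of the HES and HEY kind with NRARP went both ways, like HES1 and HEY1. It holds BHLHE40 and BHLHE41 as related repressors, which are not taken here as targets of Notch. Of 6 tested, 2 were higher and 2 lower. HEY2 read 7.42 to 8.31 in Hs578T and 3.18 to 4.24 in BT-20 and was higher by 4.31 (adjusted p = 1.12e-06), or 2.90 with values under 5 raised to 5. BHLHE40, a repressor of the same wider family, was higher by 1.65 (adjusted p = 0.0046). NRARP, a Notch target that feeds back on the pathway, read 2.95 to 3.78 in Hs578T and 7.29 to 7.56 in BT-20 and was lower by -3.91 (adjusted p = 3.33e-06), or -2.40 with values under 5 raised to 5. BHLHE41 was lower by -2.39 (adjusted p = 0.00247).

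**Figure D2:**
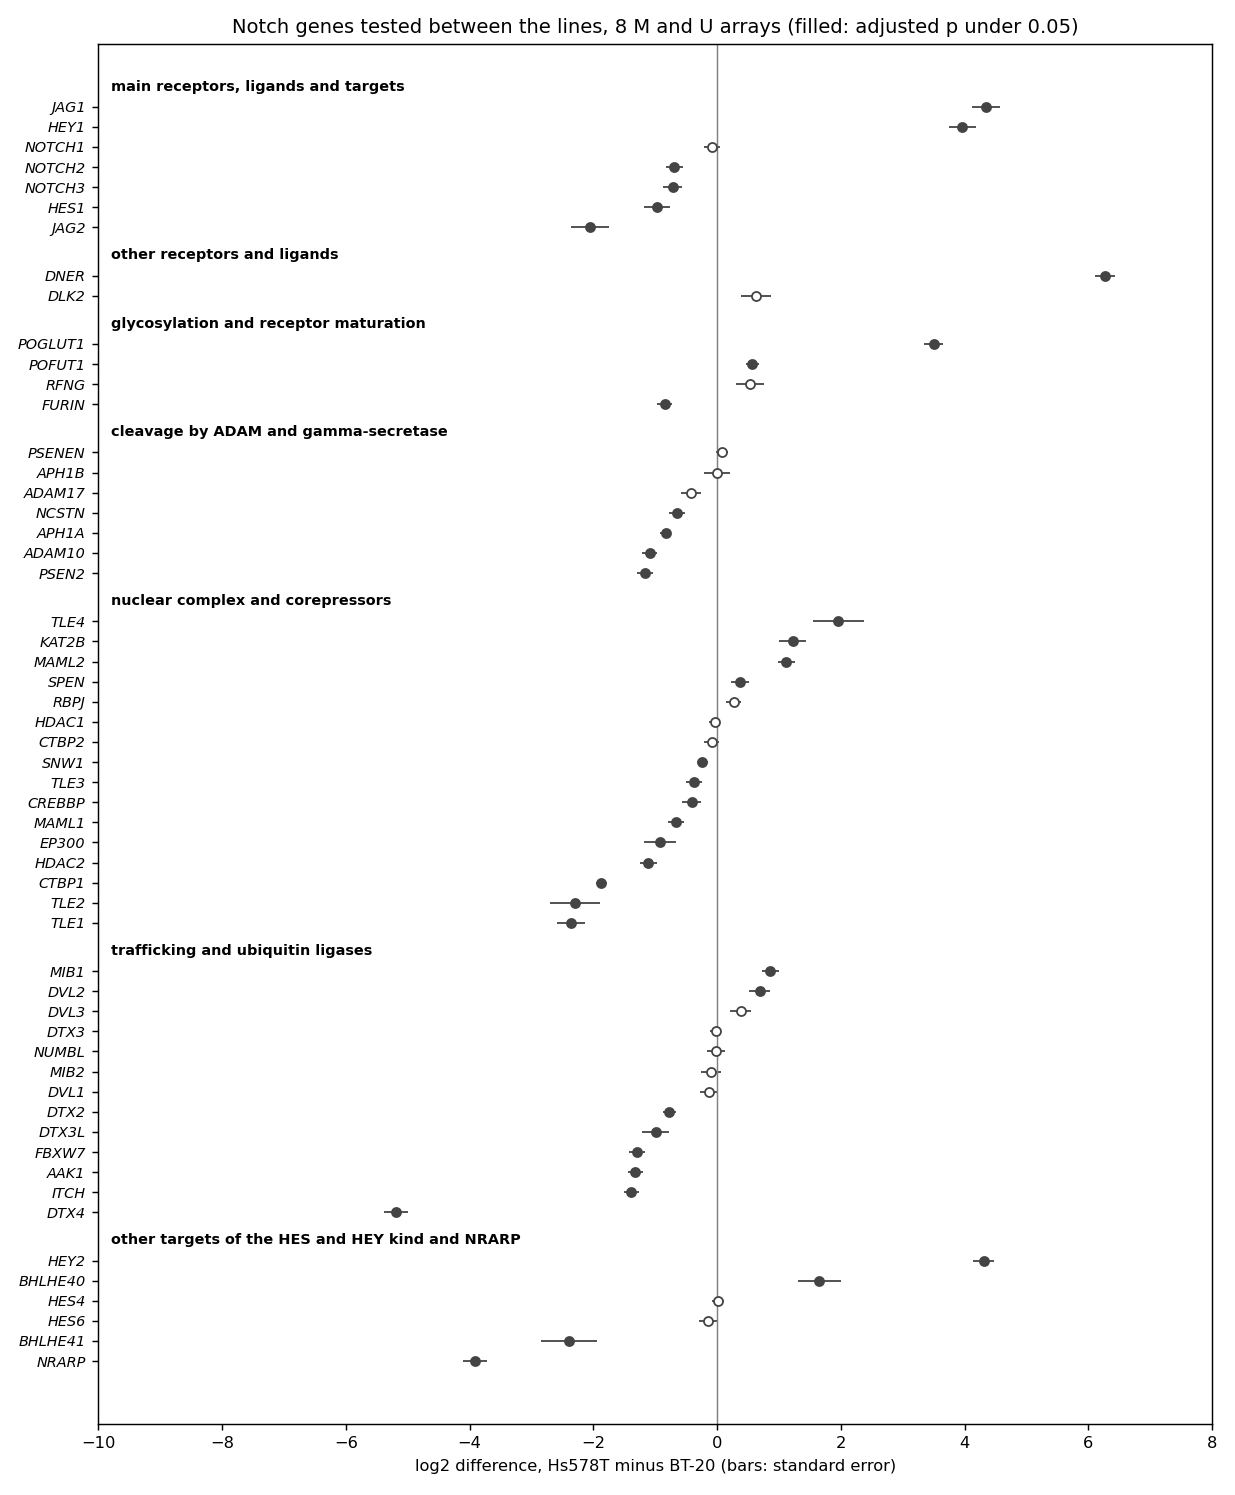
Log2 difference of Hs578T minus BT-20 over the 8 M and U arrays (horizontal axis, bars are the standard error) for the tested Notch genes, grouped by role. Filled points have an adjusted p under 0.05. JAG1, at 4.34, is measured above 5 in both lines, while the points of DNER, HEY2, HEY1, POGLUT1, JAG2, DTX4 and NRARP rest on values under 5 in 1 line; the cleavage genes lie at or left of 0.08.

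The promoters of HES1 and HEY2 are shown because these targets were called in opposite directions by the probe sets used. For HES1 a second probe set differed by only -0.21 and was not called. The windows are the 250 bases before the start of each gene (RefSeq, GRCh38.p14), 5′ to 3′ on the strand of the gene. Capitals mark TGGGAA, the core of the RBPJ site, or its reverse complement TTCCCA.
HES1, chr3:194135898-194136147, plus strand: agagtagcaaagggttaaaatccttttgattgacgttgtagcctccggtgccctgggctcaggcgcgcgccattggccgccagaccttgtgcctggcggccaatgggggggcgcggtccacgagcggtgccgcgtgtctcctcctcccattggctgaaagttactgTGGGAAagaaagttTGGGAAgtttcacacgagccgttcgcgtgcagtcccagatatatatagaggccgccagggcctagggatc
HEY2, chr6:125749382-125749631, plus strand: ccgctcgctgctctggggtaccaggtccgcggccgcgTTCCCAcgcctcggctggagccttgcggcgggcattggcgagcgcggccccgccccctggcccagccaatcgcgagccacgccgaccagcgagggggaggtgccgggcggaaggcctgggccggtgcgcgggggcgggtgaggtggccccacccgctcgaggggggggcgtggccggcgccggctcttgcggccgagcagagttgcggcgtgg
The HES1 window holds 2 copies of TGGGAA and the HEY2 window 1. On both strands together TGGGAA was found in 20.8% of 35116 promoter windows of this length, with 2 or more copies in 2.9%, and the longer GTGGGAA, which contains it, in 5.43%. GTGGGAA was found once in each of these windows. Windows were read for 7 of the 10 genes, and besides HES1 only 1 of 2 windows of LFNG held TGGGAA, once. No window was at hand for DLL1 and MFNG, and HEY1 was left out by its chromosome, so its promoter was not read. In the list of other genes of the HES and HEY kind with NRARP, 5 of 10 held it, BHLHE41 among them, with HES5 and HEYL at 2 copies and NRARP at 0. A match describes the letters only.

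The next comparison was the one the study was designed for, M against U. It called none of the 7 genes tested. Over all genes tested it called 0% in either line, 0% over both and 0% for the difference between Hs578T and BT-20, in limma with adjusted p under 0.05, and 680, 174, 543 and 258 of 10410 genes had an unadjusted p under 0.05. None of the 7 genes had an unadjusted p under 0.05 in any of these comparisons. Their differences, M minus U, ran from -0.26 (NOTCH2) to 0.33 (HEY1) in Hs578T and from -0.56 (JAG2) to 0.31 (HEY1) in BT-20.

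The single pairs show how the sets spread. For HEY1 in Hs578T, M minus U was -0.18 in set 1 and 0.84 in set 2. For NOTCH3 in BT-20 it was -0.63 in set 1 and 0.23 in set 2, and for LFNG in BT-20 -1.16 and 0.54. For JAG1 it was at or below 0 in all 4 pairs, from -0.00 to -0.32, and over both lines the difference was -0.18 (SE 0.23, adjusted p = 0.997). Differences of this size were within the spread of the arrays.

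ODN2006 against its GpC control was compared over both lines, with 1 array of each per line, and the spread was taken from the replicated M and U arrays. It called 1 of 10543 genes (0.00948%; 490 at an unadjusted p under 0.05), or 150 of 19775 with no filter on low values, and 0 of the 8 Notch genes tested, none of which had an unadjusted p under 0.05. In Hs578T HES1 read 9.65 under ODN2006 and 8.96 under the control, and in BT-20 10.05 under ODN2006 and 9.96 under the control, an average difference of 0.39 (SE 0.29, adjusted p = 0.999). HEY1 was 0.24 higher with ODN2006 in Hs578T and 0.48 higher in BT-20 (average 0.36, SE 0.31, limma, adjusted p = 0.999). In BT-20 both values, 3.53 and 3.05, were under 5, and with values under 5 raised to 5 the average was 0.12. The second HEY1 probe set read 4.83 and 4.83 in Hs578T. In BT-20 that probe set read 2.57 with ODN2006 and 2.64 with the control. The other 6 genes tested differed by -0.24 to 0.05.

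The ODN arrays were then set against the M and U arrays of set 2, which carry the same code in their array names, in each line. This comparison joins ODN2006 with its control, and M with U, and the kinds of oligonucleotide differ in sequence and strandedness at once. In Hs578T it called 937 of 10375 genes, 9.03%, and 1 of the 8 Notch genes tested, MFNG. In BT-20 it called 0%, with 534 genes at an unadjusted p under 0.05, and 0 of the 8 genes. The M and U arrays of set 2 are also part of the comparisons above, so that the results share arrays. They come from 1 set and the ODN arrays have no set number, so kind of oligonucleotide and culture set cannot be told apart. The SE holds no spread between sets. M and U arrays of the same set also deviated together (correlation 0.599 in Hs578T and 0.595 in BT-20), so these 2 arrays a line are not independent.

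MFNG (gene ID 4242, chromosome 22, 37469063 to 37486384; 204153_s_at) encodes a Golgi enzyme that lengthens O-fucose on Notch. In Hs578T it measured 5.47 with ODN2006 and 5.54 with the ODN control. The M arrays of the line read 3.02 and 3.03 and the U arrays 3.23 and 3.03. In BT-20 it read 3.02 with ODN2006, 3.02 with the control, 3.04 and 3.02 with M and 3.04 and 3.02 with U. The gene was above 5 only on both ODN arrays of Hs578T, with CpG and with GpC in the sequence, and lay close to 3 on the other 10.

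The difference of the ODN arrays from M and U in Hs578T was 2.48 (SE 0.10, adjusted p = 7.65e-05), and 0.51 (adjusted p = 0.0203) with values under 5 raised to 5. In BT-20 it was -0.00 (adjusted p = 1). The difference between the lines was 2.48 (SE 0.13, adjusted p = 0.000851), which made MFNG the 1 Notch gene among the 28 genes called there (0.27% of those tested). With values under 5 raised to 5 this difference between the lines was 0.51 and was not called (adjusted p = 0.134). MFNG passed the filter only through the ODN arrays of Hs578T and fell below it when either was left out. Without a filter the difference in Hs578T was 2.52 without the ODN2006 array (adjusted p = 0.000283) and 2.45 without the control array (adjusted p = 0.000265), an alternative chosen after the values were seen. The small SE reflects arrays at background, where values hardly vary.

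The 3 probe sets of MFNG did not all move. In Hs578T 204152_s_at read 3.05 under ODN2006 and 2.91 under the control, and 2.09 to 2.12 on the other 10 arrays. 213783_at read 2.37 to 2.50 on all 12 arrays. Neither reached 5, so neither was tested. MFNG was 1 of 53 genes, 0.268% of 19775, that were at 5 or above on both ODN arrays and under 5 on all 4 M and U arrays of Hs578T; 55 genes had the opposite pattern. In BT-20 9 and 18 genes had these patterns. On the same ODN arrays of Hs578T the summed mesenchymal signal was 276407 and 280126, against 240710 to 250157 on the M and U arrays, that of epithelial markers 5829 and 6554, against 6970 to 9159, and that of endothelial and leukocyte markers 127 and 159, against 72 to 123. KRT18 was the highest epithelial marker in Hs578T, at 12.30 and 12.54 on the ODN arrays against 12.66 to 12.96. PECAM1 was the only endothelial or leukocyte marker to reach 5 there, at 6.69 and 6.19 against 4.08 to 6.07. The epithelial sum thus rests mostly on KRT18, and the differences in the endothelial and leukocyte sum mostly on PECAM1. The part of these summed signals in the MFNG difference was not tested.

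**Figure D3:**
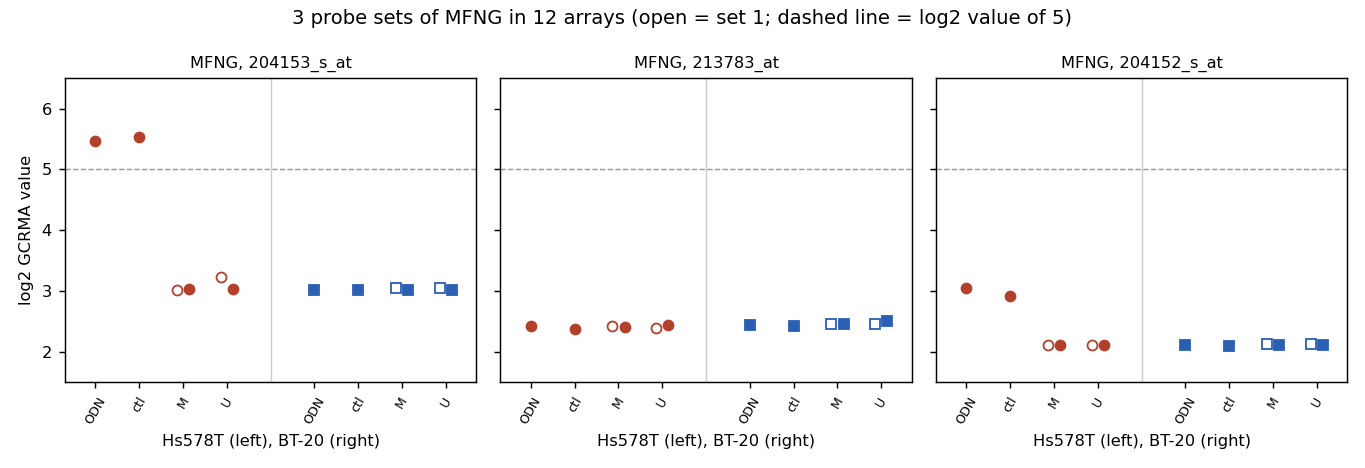
Log2 GCRMA value (vertical axis) of the 3 MFNG probe sets on each of the 12 arrays, with Hs578T left (circles) and BT-20 right (squares), open symbols for set 1 and a dashed line at 5; ODN is ODN2006 and ctl its control. 204153_s_at and 204152_s_at are raised on both ODN arrays of Hs578T, to 5.47 and 5.54 and to 3.05 and 2.91, and 213783_at is level.

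None of the other 7 Notch genes tested was called between the ODN arrays and M and U of set 2. In Hs578T NOTCH3 differed by 0.51 (SE 0.18, limma, adjusted p = 0.111) and NOTCH2 by 0.42 (SE 0.16, adjusted p = 0.139). Both had an unadjusted p under 0.05, as had 3051 of the 10375 genes tested. The ODN arrays of Hs578T lay above all 4 M and U arrays for NOTCH2, and the share of all genes that separate so was not counted. The 3 other NOTCH2 probe sets differed by 0.47 to 0.70 without being called. Without the Hs578T U array of set 2, NOTCH2 was called (0.65, adjusted p = 0.0242). HES1 differed by 0.48 (SE 0.25, adjusted p = 0.248), and HEY1 by -0.48 (SE 0.32, adjusted p = 0.354). The second HEY1 probe set read 4.83 and 4.83 on the ODN arrays and 5.26 to 5.87 on the M and U arrays of Hs578T, a difference of -0.74 (adjusted p = 0.059).

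In BT-20 JAG2 differed by 0.58, NOTCH3 by 0.43 and NOTCH1 by -0.29, each with an unadjusted p under 0.05 and an adjusted p of 0.767 or above. For JAG2 and NOTCH3 the ODN arrays lay above both arrays of set 2 but overlapped with those of set 1. For NOTCH1 they lay below all 4, at 7.32 and 7.16 against 7.49 to 7.94, and the share of all genes that do so was not counted. The difference between the lines was 0.50 for JAG1 (adjusted p = 0.329) and 0.43 for NOTCH2 (adjusted p = 0.397), and neither was called.

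**Figure D4:**
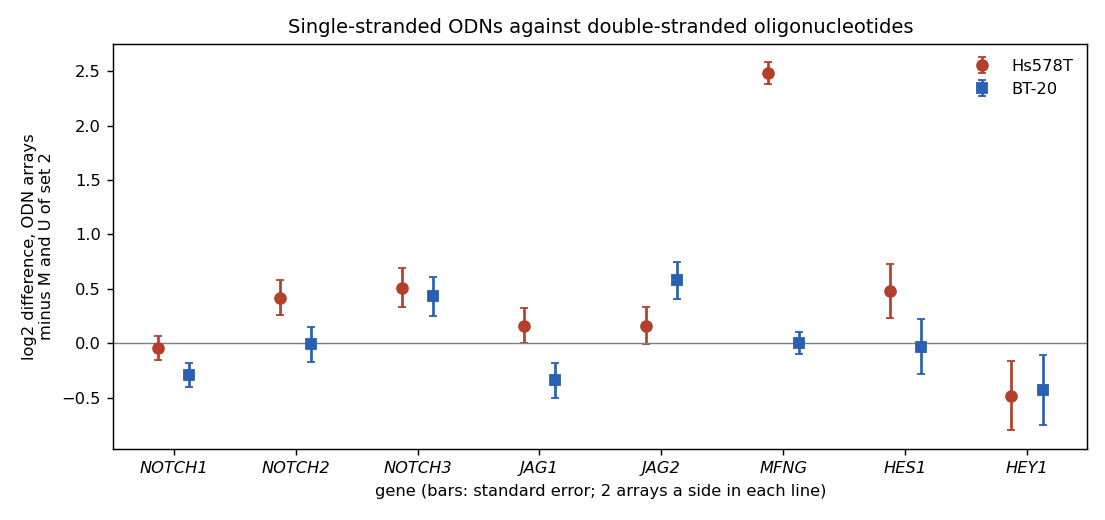
Log2 difference of the ODN arrays minus the M and U arrays of set 2 (vertical axis) for the 8 Notch genes tested, in Hs578T (circles) and BT-20 (squares), from 2 arrays a side in each line. Bars are the standard error. MFNG in Hs578T, at 2.48, stands apart from the other values, which lie between -0.48 and 0.58.

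Of the other pathway genes 49 were tested between the ODN arrays and M and U of set 2, and in Hs578T 2 were called higher and 3 lower, 5 of 49 against a background of 9.03%. FBXW7 read 5.02 with ODN2006 and 5.77 with the control, against 6.90 with M and 6.63 with U in set 2, a difference of -1.37 (adjusted p = 0.0349). TLE3, a corepressor, read 7.13 with ODN2006 and 6.82 with the control, against 8.04 with M and 7.73 with U (-0.91, adjusted p = 0.0325). For both, the M and U arrays of set 1 (7.12 and 6.19 for FBXW7, 7.96 and 7.97 for TLE3) were above the ODN arrays too.

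For the other 3 genes set 1 did not stand with set 2. BHLHE40 (0.54, adjusted p = 0.0316) read 11.02 and 11.03 on the ODN arrays and 10.48 and 10.51 in set 2, but 11.01 and 10.98 in set 1. TLE2 (0.61, adjusted p = 0.0349) read 4.68 and 4.77 on the ODN arrays and 4.20 and 4.03 in set 2, all under 5, but 5.43 and 5.39 in set 1. APH1B, a gamma-secretase subunit (-0.60, adjusted p = 0.0495), read 6.55 and 6.92 on the ODN arrays and 7.29 and 7.37 in set 2, but 6.60 and 6.73 in set 1. None of the 49 was called in BT-20 or for the difference between the lines.

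The genes whose pattern over the 12 arrays was nearest were found from the root mean square difference of values centred on each gene's mean, among 10542 genes. For JAG1 they were FBXL13 (0.24) and FNDC5 (0.25), and for HEY1 STOM (0.27) and NAP1L5 (0.29). JAG2 lay nearest to EIF3J-DT and SLC29A2 (0.27 each), and MFNG nearest to RSKR (0.16) and HOXA2 (0.19). NOTCH1 and NOTCH2, which varied little, lay within 0.09 of POTEKP and 0.08 of NDEL1. For NOTCH3 the nearest was PITPNA-AS1 (0.17), and for HES1 MYO19 (0.18). These distances are descriptions, and the arrays share lines and sets.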

How the data were processed

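Total RNA was labelled in 1 cycle and hybridised to Affymetrix HG-U133 Plus 2.0 arrays. The deposited values are log2 expression values for 54675 probe sets on 12 arrays, which the authors summarised with GCRMA in R 2.4, per the labels; whether all arrays were normalised together is not given in the sources used here. The probe table assigned 41097 probe sets to 1 gene, 1801 to several and 11777 to none, and 41043 were named by gene ID through RefSeq (GRCh38.p14).

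Tests used limma 3.58.1 in R 4.3.3, with group means of line and treatment, eBayes and Benjamini-Hochberg adjustment, on genes at 5 or above in at least 2 arrays of the comparison, with 4 residual degrees of freedom. The 8 M and U arrays served the comparison of the lines and of M with U, all 12 arrays ODN2006 against its control, and the 4 ODN and 4 set 2 arrays the comparison of ODN with M and U. Single ODN arrays were assumed to vary like the others. Set numbers pair M and U arrays: deviations from group means correlated at 0.599 in Hs578T and 0.595 in BT-20, against 0.098 to 0.131 between lines (10410 genes, which are not independent), and the set label names the pairing. P-values measure the spread between the deposited arrays, whose number limits the precision. For the comparison of the lines they treat M and U arrays of the same set as independent.

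Named genes were all 10, in each of the 6 pathway lists up to 4 tested genes with the smallest p between the lines, and any called elsewhere. Members, lists and rules were chosen with earlier results of these data known. The scripts were tested on simulated data. Alternatives covered the filter, low values, probe set choice, normalisation, eBayes settings, the block, single arrays and single sets.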

Additional observations from a re-analysis of the deposited data

Results flagged for a closer look

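For MFNG the difference of the ODN arrays from M and U of set 2 was not the same in the 2 lines; it differed between the lines by 2.48 on the log2 scale (SE 0.13, adjusted p = 0.000851, limma), being 2.48 in Hs578T and -0.00 in BT-20. It was higher on 2 of 2 ODN arrays of Hs578T. MFNG passed the filter on low values only through these 2 arrays, so that it had to differ to be tested, and its values on the other arrays were 3.02 to 3.23, where little spread is left. With values under 5 raised to 5 the difference between the lines was 0.51 and was not called (adjusted p = 0.134), and 1 of the 3 probe sets, 213783_at, was level at 2.37 to 2.50.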

How the results depend on the processing

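The count of Notch genes called between the lines was 6 of 7, and 5 to 7 over 19 alternatives. With the replicate block (set within line) it was 6 of 7, with 8431 of 10410 genes called, against 7769 without the block. The block takes the spread between sets out of the error, so for the lines it is no stricter check. It was run for the comparison of the lines, M against U and ODN2006 against its control, and changed no call of a Notch gene there. It was not run for the ODN arrays against M and U of set 2, which hold 1 set. With each array left out the count between the lines stayed at 6. Of the called genes, JAG1, JAG2 and HEY1 were called under all 19 alternatives, NOTCH2 under 17 of 19, NOTCH3 under 17 of 18 and HES1 under 18 of 19. NOTCH2 and HES1 lost their call on the ODN arrays alone (-0.11 and -0.70, adjusted p = 0.372 and 0.0572). NOTCH1, called under none of them, ranged from -0.21 to 0.02 with arrays left out and changed sign to 0.02 without the BT-20 U array of set 1, 0.06 over all 12 arrays and 0.22 on the ODN arrays alone.

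For the ODN arrays in Hs578T the count of 1 became 0 with the mean of all probe sets of a gene, where MFNG was not tested, and ranged from 0 to 2 when arrays were left out: 0 without either Hs578T ODN array and 2 without the Hs578T U array of set 2. Calls over all genes then ranged from 50 (without Hs578T ODN2006) to 1510 (without that U array), against 937, and were 1444 with trend and robust eBayes and 487 with no filter and without Hs578T ODN2006. JAG2 ranged from -0.01 to 0.34 with arrays left out and changed sign (-0.01) without Hs578T ODN2006, with and without the filter. For the difference between the lines the count of 1 became 0 with values under 5 raised to 5 and with the mean of all probe sets, and 0 to 1 with arrays left out, being 0 without either Hs578T ODN array; all-gene calls, 28 at first, were 1 without ODN2006, 76 without the control, 123 without the Hs578T U array of set 2, 7 without either BT-20 array of set 2, 10 without BT-20 ODN2006, 67 with no filter, 50 with values under 5 raised to 5 78 with housekeeping centring and, with no filter, 131 without Hs578T ODN2006 and 463 without its control. The causes were not tested. For M against U and for ODN2006 against its control the count of Notch genes was 0 under every alternative run; for ODN2006 against its control the calls over all genes were 1 at first, 150 of 19775 with no filter and 3 with values under 5 raised to 5, and for the ODN arrays in BT-20, 0 at first, they were 4 with no filter, over all 12 arrays and without the BT-20 ODN2006 control. Leaving out an ODN array could not be run for ODN2006 against its control. Values near background limit JAG2, LFNG, DLL1, HEY1 and MFNG, and likewise DNER, POGLUT1, HEY2, NRARP, DTX4 and TLE2.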
